A study of Mus musculus with 6 samples.

Results

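The basement membrane genes described here are 32 genes that encode collagen IV, collagens XV and XVIII, laminin chains, nidogens, perlecan, agrin and other proteins of the same sheet. They were chosen by name, as the probe set of the array with that gene symbol. All 32 had a probe set, 1 each, among 19505 genes with a symbol. Hearts of 3 *Col1a2-/-* mice and 3 *Col1a2+/-* mice, all 2 months old and of the C57/BL6 strain background, were measured with 1 Affymetrix Clariom S Mouse array per heart. The *Col1a2-/-* mice carry a germline knockout-first allele on both chromosomes, in which a large cassette lies after the first coding exon, and the *Col1a2+/-* controls carry the same allele on 1 chromosome, so that no wild-type heart was on the arrays. The allele acts in every cell of the body from development on, and the study names a possible effect of the cassette on neighboring genes as a limit of the model. The labels give whole heart as the tissue, while the methods give whole ventricles, and the labels give no sex. Below, the 2 genotypes are compared to ask whether loss of one chain of interstitial collagen I goes with altered RNA of the other matrix of the heart, the one that borders cells.

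A basement membrane is a thin sheet of matrix that surrounds each cardiomyocyte and underlies the endothelium of each capillary. Laminin trimers, each of an alpha, a beta and a gamma chain, bind integrins and dystroglycan on the cell and form 1 network, and triple helices of collagen IV form another. Nidogens and the heparan sulfate proteoglycan perlecan link both networks, and agrin ties laminin to dystroglycan. Collagens XV and XVIII lie on the outer face of the sheet, toward the interstitial collagen fibers, and the C-terminal end of collagen XVIII can be released as endostatin.

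Values are log2 signals as deposited, and a difference is always *Col1a2-/-* minus *Col1a2+/-*. Genotypes were compared with limma over 22206 probe sets, and an adjusted p is a Benjamini-Hochberg value over that whole set. The array medians lay between 6.64 and 6.67. A signal was called dim under 5.97. Of the 1452 olfactory, vomeronasal and taste receptor probe sets, which a heart should hardly use, 95% had a mean below this limit, and 12816 of all tested lay above. *Col1a2* had 9.47, 9.06 and 9.18 in *Col1a2+/-* hearts 2769, 3201 and 3294 and 6.86, 6.84 and 6.48 in *Col1a2-/-* hearts 2767, 2770 and 3200, which matched the labels (difference -2.51, standard error 0.19, adjusted p = 0.00626). The ventricular markers *Myh6*, *Myl2* and others made a list of 14, all above the dim limit. *Col1a2+/-* heart 3294 stood apart from the rest, with a log2 signal of 2.65 for the Y-linked gene *Uty* against 11.58 to 11.90 in the other hearts, and 13.47 for the atrial gene *Myl7* against 8.07 to 12.08. The mean of 3 Y-linked genes was 3.81 in heart 3294 and 10.56 to 10.93 in the others. By these genes it is the only female heart, so sex is not balanced between genotypes or series. The mean of 8 atrial markers was 13.18 in heart 3294 and 9.14 to 10.86 in the others. For 8 fat markers, 6 of them dim, it was 8.06 in heart 3294 and 6.84 to 7.01 in the others. What sex, or the atrial and fat signal of heart 3294, contributes to the differences below was not tested. The animal numbers fall into 2 series, and hearts 2769, 2767 and 2770 belong to series 27 and hearts 3201, 3294 and 3200 to series 32. The labels do not say what a series is.

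Among the basement membrane genes, *Nid2*, *Col18a1* and *Hmcn1* had a higher log2 signal in *Col1a2-/-* hearts at an unadjusted p under 0.05, and none was lower. None of the 32 passed an adjusted p under 0.05, and neither did any other gene but *Col1a2* (1 of 22206 probe sets, 0.0045%). The 3 genes are 9.38% of the 32, where 2.67% of all probe sets were higher and 2.79% lower at this limit. For 4 genes, *Nid1* in addition, all *Col1a2-/-* hearts lay above all *Col1a2+/-* hearts (12.5%, against 5.13% of all probe sets), and for 0 genes all lay below (5.47% of all probe sets). The difference was positive for 19 of the 32, and 49.9% of all probe sets had a positive one. The median difference was 0.11 on the log2 scale, against -0.00062 over all probe sets, and it was 0.05 without *Col1a2-/-* heart 2767 and 0.18 without *Col1a2+/-* heart 2769. The 32 genes ranged from -0.49 for *Lama3* to 0.59 for *Nid2*. Of the 32, 26 had a mean above the dim limit. Among these, 3 were higher (11.5%, against 2.32% of probe sets above the limit), 0 were lower (1.89%), 4 lay above without overlap (15.4%, against 5.59%) and 0 below (5.27%), and 17 had a positive difference (65.4%, against 51.5%). The other 6, *Col4a6*, *Lama5*, *Lamb3*, *Frem1*, *Npnt* and *Egflam*, had means from 3.57 to 5.88. Left out in turn, the 6 hearts gave 1 to 4 genes higher at the unadjusted limit, 1 of them without *Col1a2+/-* heart 3201 and 1 without *Col1a2-/-* heart 2767. Without *Col1a2+/-* heart 3294 there were 2, *Nid2* and *Hmcn1*.

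**Figure D1:**
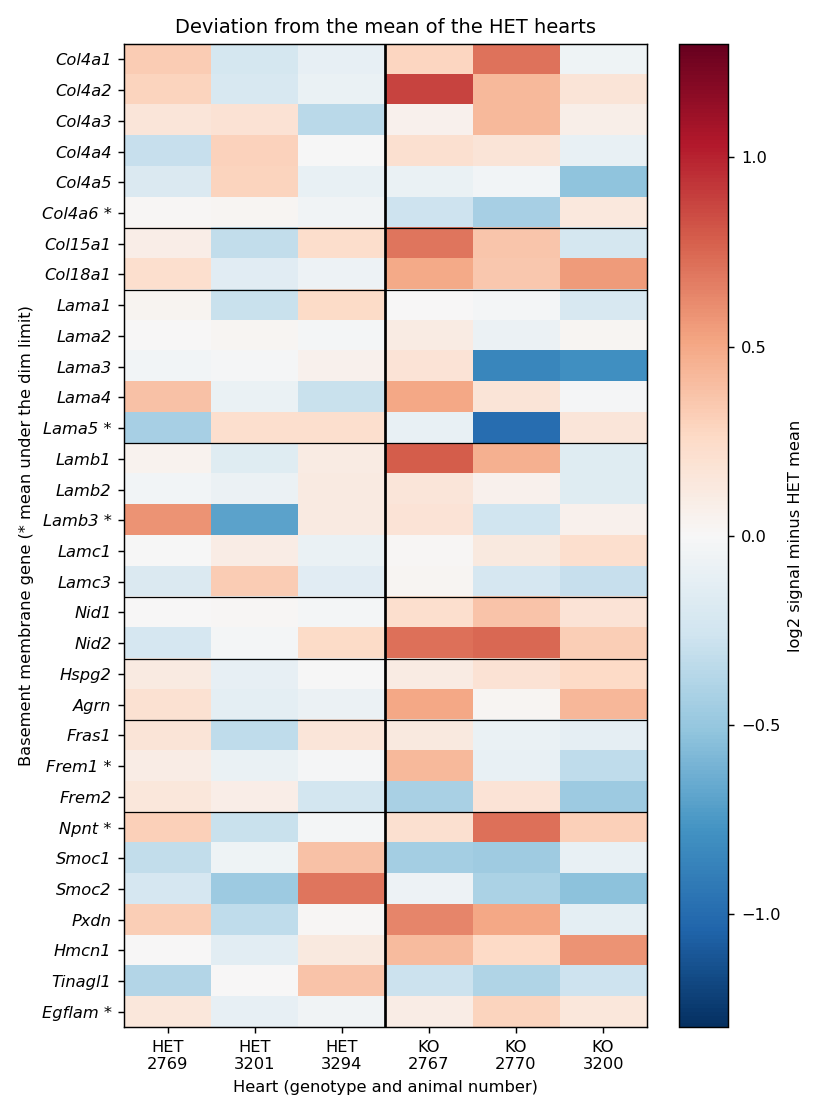
Log2 signal of each of the 32 genes in each of the 6 hearts (columns, HET for *Col1a2+/-* and KO for *Col1a2-/-*), as the deviation from the mean of the 3 *Col1a2+/-* hearts, with red above and blue below that mean, black lines between groups of genes, and an asterisk for a mean under the dim limit of 5.97. The rows of *Nid1*, *Nid2*, *Col18a1* and *Hmcn1* are red in all 3 KO columns.

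**Figure D2:**
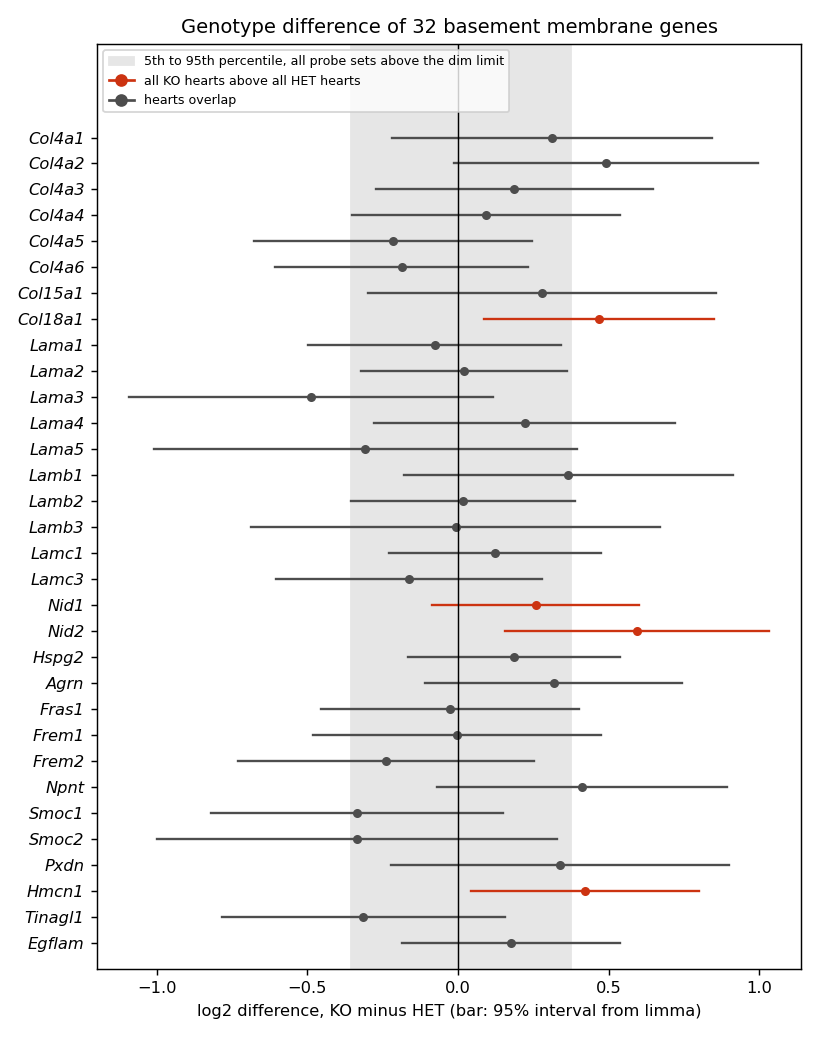
Log2 difference between KO (*Col1a2-/-*) and HET (*Col1a2+/-*) hearts of each gene (dots) with its 95% interval from limma (bars), and the range from the 5th to the 95th percentile of all 12816 probe sets above the dim limit, -0.35 to 0.37 (grey band). The 4 genes in red are those without overlap between genotypes, and 3 of them, *Nid2*, *Col18a1* and *Hmcn1*, have intervals that leave out 0.

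Both nidogens lay higher in *Col1a2-/-* hearts without overlap, and *Nid2* had the largest difference of the 32 genes. *Nid2* encodes nidogen-2, which binds laminin and collagen IV and is prominent in vessel walls. Its log2 signal was 7.48, 7.68 and 7.95 in *Col1a2+/-* hearts 2769, 3201 and 3294 and 8.42, 8.45 and 8.03 in *Col1a2-/-* hearts 2767, 2770 and 3200. The lowest *Col1a2-/-* heart was thus 0.077 above the highest *Col1a2+/-* heart. The difference of 0.59 (standard error 0.19, adjusted p = 0.879 from limma), 1.51-fold, was 0.95 within series 27 and 0.21 within series 32. It did not pass the unadjusted limit without *Col1a2+/-* heart 2769, at 0.48, or without *Col1a2-/-* heart 2770, at 0.52. *Nid1* encodes nidogen-1, the more widespread of the pair, whose globular domains join laminin gamma-1 to collagen IV and perlecan. Its log2 signal was 12.21, 12.23 and 12.18 in *Col1a2+/-* hearts and 12.43, 12.58 and 12.38 in *Col1a2-/-* hearts, in the same order of hearts. The *Col1a2+/-* hearts lay close together and the gap to the *Col1a2-/-* hearts was 0.16. The difference of 0.26 (standard error 0.15, adjusted p = 0.924 from limma) is 1.20-fold. It was 0.29 and 0.18 within series 27 and 32, and 0.20 to 0.30 with any 1 heart left out, and its unadjusted p of 0.123 from limma did not pass. *Nid1* passed the unadjusted limit with the methods' t-test (unadjusted p = 0.013), but not with the series as a block (unadjusted p = 0.195 from limma). Whether *Nid1* passed thus depended on the test, and its adjusted p passed under no alternative. An exact two-sided permutation test of the difference of means over the hearts gave p = 0.1 for each nidogen, the smallest that 3 hearts against 3 allow.

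Collagen XVIII was the only one of the 8 collagen chains among the 32 genes whose hearts did not overlap between genotypes. *Col18a1* had a log2 signal of 6.94, 6.57 and 6.65 in *Col1a2+/-* hearts 2769, 3201 and 3294 and 7.22, 7.07 and 7.28 in *Col1a2-/-* hearts 2767, 2770 and 3200. All *Col1a2-/-* hearts lay above 7.0, and the gap between genotypes was 0.14. The difference of 0.47 (standard error 0.17, adjusted p = 0.884 from limma), 1.38-fold, was 0.21 within series 27 and 0.67 within series 32 and was thus larger in the series in which *Nid2* differed less. With a heart left out it lay between 0.39 and 0.58 and passed the unadjusted limit in 2 of 6 cases, those without *Col1a2+/-* heart 2769 and without *Col1a2-/-* heart 2770. *Col15a1*, which encodes the related collagen XV of muscle and capillary basement membranes, did not pass. It had 7.65, 7.25 and 7.79 in *Col1a2+/-* hearts and 8.26, 7.93 and 7.34 in *Col1a2-/-* hearts, so that *Col1a2-/-* heart 3200 lay among the controls. Its difference was 0.28 (95% interval -0.30 to 0.86), 0.44 within series 27 and -0.18 within series 32, and it moved from 0.07 without *Col1a2-/-* heart 2767 to 0.53 without *Col1a2-/-* heart 3200.

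*Hmcn1* encodes hemicentin-1, a very large secreted protein of immunoglobulin-like repeats that is known from Caenorhabditis elegans as a tether between adjoining basement membranes. Its log2 signal was 7.94, 7.79 and 8.06 in *Col1a2+/-* hearts 2769, 3201 and 3294 and 8.34, 8.19 and 8.52 in *Col1a2-/-* hearts 2767, 2770 and 3200. The gap between genotypes was 0.13. The difference of 0.42 (standard error 0.17, adjusted p = 0.906 from limma), 1.34-fold, was positive in both series, 0.33 in series 27 and 0.59 in series 32. Leaving out a heart gave 0.34 to 0.50, and 2 of 6 cases passed the unadjusted limit, those without *Col1a2+/-* heart 3294 and without *Col1a2-/-* heart 2770.

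**Figure D3:**
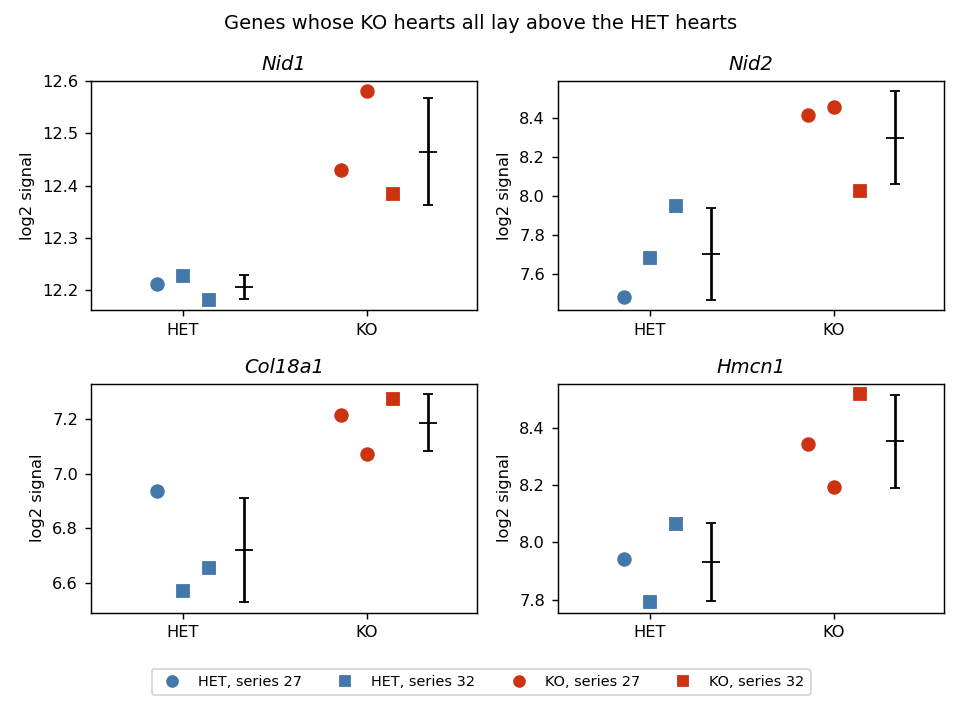
Log2 signal of *Nid1*, *Nid2*, *Col18a1* and *Hmcn1* in each heart, by genotype (HET, *Col1a2+/-*, blue; KO, *Col1a2-/-*, red) and animal-number series (circles for 27, squares for 32), with the mean and SD of 3 hearts in black. In each panel the 3 red points lie above the 3 blue ones, with gaps of 0.16, 0.077, 0.14 and 0.13, and each axis starts above 0.

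*Nid1*, *Nid2*, *Col18a1* and *Hmcn1* were picked because all *Col1a2-/-* hearts lay above all *Col1a2+/-* hearts. Their shared direction follows from that choice. With 1 probe set per gene, RNA from different starts is not reported separately. The start regions of these genes are shown as a description only. They come from RefSeq on GRCm38.p6, 250 bases before and 50 after a start site, written 5' to 3' on the strand of the gene. The table has such a window for 22 of the 32 genes, *Nid2* not among them. *Col18a1* has 2 windows, for a long and a short form of the protein, which this array cannot tell apart. Capitals mark the GC box GGGCGG, read by Sp factors, and the CCAAT box, in either direction. These motifs are found in 35.7% and 37.4% of all 32851 windows of this length, and the 2 did not overlap in any sequence shown. A match describes letters and not a bound factor.
Nid1, chr13:13437352-13437651, plus strand: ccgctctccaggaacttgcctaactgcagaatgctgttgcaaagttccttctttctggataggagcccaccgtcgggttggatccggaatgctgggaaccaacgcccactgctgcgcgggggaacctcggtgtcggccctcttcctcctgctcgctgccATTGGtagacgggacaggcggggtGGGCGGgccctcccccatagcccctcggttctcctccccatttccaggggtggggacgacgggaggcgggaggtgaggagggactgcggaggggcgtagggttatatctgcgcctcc
Hmcn1, chr1:150993386-150993685, minus strand: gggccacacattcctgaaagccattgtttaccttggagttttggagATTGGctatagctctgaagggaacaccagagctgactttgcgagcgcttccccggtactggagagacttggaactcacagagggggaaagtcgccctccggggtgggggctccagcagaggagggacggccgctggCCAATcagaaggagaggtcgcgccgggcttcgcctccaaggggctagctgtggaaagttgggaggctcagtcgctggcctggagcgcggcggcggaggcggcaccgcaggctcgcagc
Col18a1, chr10:77166481-77166780, minus strand: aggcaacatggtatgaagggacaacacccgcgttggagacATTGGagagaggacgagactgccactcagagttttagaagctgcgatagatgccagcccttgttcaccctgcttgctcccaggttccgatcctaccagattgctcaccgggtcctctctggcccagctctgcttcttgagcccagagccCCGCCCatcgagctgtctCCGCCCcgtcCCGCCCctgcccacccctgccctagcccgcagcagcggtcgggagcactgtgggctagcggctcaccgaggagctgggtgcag
Col18a1, chr10:77113656-77113955, minus strand: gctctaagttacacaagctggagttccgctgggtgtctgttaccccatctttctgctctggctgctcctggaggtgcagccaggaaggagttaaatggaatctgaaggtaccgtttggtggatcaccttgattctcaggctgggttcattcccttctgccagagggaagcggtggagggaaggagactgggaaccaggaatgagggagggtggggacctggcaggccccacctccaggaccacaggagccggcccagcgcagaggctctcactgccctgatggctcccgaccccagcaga
*Nid1* and the *Col18a1* window at the higher coordinates hold both motifs, *Hmcn1* holds 2 CCAAT boxes in opposite directions, and the other *Col18a1* window holds neither. The TATAAA box is in none of the 29 windows taken for the 22 genes and in 13.6% of all windows.

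Of the 6 collagen IV chains, none passed the unadjusted limit. Collagen IV is made as trimers of which the form with 2 chains from *Col4a1* and 1 from *Col4a2* is the common one of vessels and muscle, while the chains of *Col4a3*, *Col4a4* and *Col4a5* make that of the kidney filter. *Col4a1* and *Col4a2* are read in opposite directions from start sites that lie 21 bases apart in this annotation, and their windows share 78 bases, which is why both are shown.
Col4a1, chr8:11312777-11313076, minus strand: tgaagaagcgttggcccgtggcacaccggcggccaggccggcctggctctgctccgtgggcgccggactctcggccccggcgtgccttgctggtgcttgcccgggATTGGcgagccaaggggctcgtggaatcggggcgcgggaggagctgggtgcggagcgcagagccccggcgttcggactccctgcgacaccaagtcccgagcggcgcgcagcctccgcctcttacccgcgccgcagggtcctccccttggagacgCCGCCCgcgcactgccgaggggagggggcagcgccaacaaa
Col4a2, chr8:11312555-11312854, plus strand: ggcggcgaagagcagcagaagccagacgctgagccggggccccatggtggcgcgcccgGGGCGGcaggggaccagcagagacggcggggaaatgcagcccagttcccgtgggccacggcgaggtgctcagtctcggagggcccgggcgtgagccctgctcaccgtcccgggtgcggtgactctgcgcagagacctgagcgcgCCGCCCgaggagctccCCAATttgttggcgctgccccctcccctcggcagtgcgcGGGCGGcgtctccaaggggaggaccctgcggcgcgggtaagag
The CCGCCC near the end of the *Col4a1* window and the last GGGCGG of the *Col4a2* window are the same bases read from both strands. Each window holds 1 CCAAT box of its own in addition. *Col4a2* had a log2 signal of 10.24, 9.75 and 9.87 in *Col1a2+/-* hearts 2769, 3201 and 3294 and 10.83, 10.38 and 10.12 in *Col1a2-/-* hearts 2767, 2770 and 3200. Its difference of 0.49 (standard error 0.22, adjusted p = 0.906 from limma) was the second largest upward, but *Col1a2+/-* heart 2769 lay above *Col1a2-/-* heart 3200. The unadjusted p was 0.0557 from limma, and it passed with the dim probe sets left out (0.0482), with a trended robust prior (0.0302), and without *Col1a2+/-* heart 2769 (0.0289) or *Col1a2-/-* heart 3200 (0.0238). *Col4a1* had 8.72, 8.17 and 8.29 in *Col1a2+/-* hearts and 8.68, 9.10 and 8.35 in *Col1a2-/-* hearts, with a difference of 0.31 (standard error 0.24, adjusted p = 0.937 from limma) that was 0.11 without *Col1a2-/-* heart 2770 and 0.49 without *Col1a2-/-* heart 3200. Within series 27 and 32 the difference was 0.37 and 0.31 for *Col4a2* and 0.17 and 0.11 for *Col4a1*, all less than across the series. Both chains were thus above the mean of the controls in each series, with 1 or 2 hearts of a genotype in each series.

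The kidney-type chains overlapped between genotypes. *Col4a3* had 7.18, 7.21 and 6.67 in *Col1a2+/-* hearts 2769, 3201 and 3294 and 7.08, 7.45 and 7.10 in *Col1a2-/-* hearts 2767, 2770 and 3200, with a difference of 0.19 (95% interval -0.27 to 0.65). *Col4a4*, its neighbor in the genome, had 6.63, 7.22 and 6.92 against 7.13, 7.09 and 6.82, with a difference of 0.09 that was 0.48 in series 27 and -0.25 in series 32. *Col4a5* had 6.24, 6.72 and 6.33 against 6.34, 6.39 and 5.91, with a difference of -0.22 (95% interval -0.68 to 0.25), and its neighbor on the X chromosome, *Col4a6*, was dim, with 5.35 ± 0.04 in *Col1a2+/-* and 5.16 ± 0.29 in *Col1a2-/-* hearts (SD, n = 3 each). All 4 of these chains overlapped between genotypes.

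No laminin chain passed either. The chains of the main laminin of the cardiomyocyte surface are encoded by *Lama2*, *Lamb1* or *Lamb2*, and *Lamc1*, and loss of *Lama2* causes a congenital muscular dystrophy. *Lama2* was nearly the same in all hearts, 12.55, 12.56 and 12.52 in *Col1a2+/-* hearts 2769, 3201 and 3294 and 12.65, 12.46 and 12.57 in *Col1a2-/-* hearts 2767, 2770 and 3200. Its difference of 0.02 has a 95% interval from -0.32 to 0.36, so that a larger change in either direction lies outside what these hearts allow at that level. *Lamc1*, the gamma chain of most laminins, had 11.71, 11.81 and 11.63 against 11.74, 11.85 and 11.93, with a difference of 0.12 (95% interval -0.23 to 0.47). *Lamb2*, the beta chain of adult muscle and vessels, had 12.29 ± 0.11 in *Col1a2+/-* and 12.31 ± 0.16 in *Col1a2-/-* hearts (SD, n = 3 each). *Lamb1* varied more, with 10.98, 10.77 and 11.04 in *Col1a2+/-* hearts and 11.72, 11.40 and 10.77 in *Col1a2-/-* hearts, and the difference of 0.37 (standard error 0.24, adjusted p = 0.937 from limma) was 0.58 in series 27 and -0.13 in series 32. Without *Col1a2-/-* heart 3200 it was 0.63 and passed the unadjusted limit.

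*Lama4*, the alpha chain of endothelial laminin, had 12.76, 12.29 and 12.09 in *Col1a2+/-* hearts 2769, 3201 and 3294 and 12.89, 12.55 and 12.37 in *Col1a2-/-* hearts 2767, 2770 and 3200, with overlap (difference 0.22, standard error 0.22). Leaving out a heart gave 0.08 without *Col1a2+/-* heart 3294 to 0.41 without *Col1a2+/-* heart 2769. *Lama5*, the other alpha chain of vessel walls, was dim, with 6.04 ± 0.38 in *Col1a2+/-* and 5.73 ± 0.61 in *Col1a2-/-* hearts (SD, n = 3 each). *Lama3*, of the epithelial laminin of skin, had the largest difference downward, with 6.21, 6.24 and 6.31 in *Col1a2+/-* hearts and 6.43, 5.40 and 5.46 in *Col1a2-/-* hearts. *Col1a2-/-* heart 2767 was the highest of all and the other two the lowest, and with a mean near the dim limit the difference of -0.49 (standard error 0.27, adjusted p = 0.920 from limma) did not pass. Without that heart it was -0.82 (unadjusted p = 0.0016 from limma). The embryonic chain *Lama1* and the chains *Lamb3* and *Lamc3* had differences of -0.08, -0.0076 and -0.16.

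Both heparan sulfate proteoglycans had positive differences that did not pass the unadjusted limit with all hearts. *Hspg2*, which encodes perlecan, had 11.76, 11.53 and 11.63 in *Col1a2+/-* hearts 2769, 3201 and 3294 and 11.75, 11.83 and 11.90 in *Col1a2-/-* hearts 2767, 2770 and 3200, with a difference of 0.19 (95% interval -0.17 to 0.54). Only *Col1a2-/-* heart 2767 overlapped the controls. *Agrn*, which encodes agrin, had 8.89, 8.57 and 8.62 against 9.19, 8.71 and 9.12, with a difference of 0.32 (95% interval -0.11 to 0.74) that was 0.06 in series 27 and 0.53 in series 32. It was 0.23 without *Col1a2-/-* heart 2767, and 0.46 without *Col1a2-/-* heart 2770, where it passed the unadjusted limit. *Fras1*, *Frem1* and *Frem2*, whose products form a complex under embryonic epithelia and whose loss gives blistering in mice, had differences of -0.03, -0.0041 and -0.24.

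The other members lay on both sides of 0. *Pxdn* encodes peroxidasin, which makes the sulfilimine bonds that cross-link collagen IV, and had 10.68, 10.03 and 10.37 in *Col1a2+/-* hearts 2769, 3201 and 3294 and 10.99, 10.87 and 10.24 in *Col1a2-/-* hearts 2767, 2770 and 3200, with a difference of 0.34 (standard error 0.25). It was 0.17 without *Col1a2+/-* heart 3201, and 0.57 without *Col1a2-/-* heart 3200, where it passed the unadjusted limit. *Npnt*, which encodes nephronectin, a ligand of integrin alpha-8, was dim in all hearts, at 4.98 ± 0.30 in *Col1a2+/-* and 5.40 ± 0.27 in *Col1a2-/-* hearts (SD, n = 3 each). Negative differences were found for *Smoc1*, *Smoc2* and *Tinagl1*, at -0.34, -0.34 and -0.31. *Smoc1* and *Smoc2* encode calcium-binding proteins of the SPARC family, and *Tinagl1* a secreted protein related to cathepsin B. For *Smoc2* and *Tinagl1* the highest signal was that of *Col1a2+/-* heart 3294, at 8.35 and 12.32, and without that heart the differences were 0.0096 and -0.13. Without *Col1a2+/-* heart 2769 that of *Tinagl1* was -0.50 and passed the unadjusted limit, and without *Col1a2+/-* heart 3201 that of *Smoc2* was -0.58 and did not. *Smoc1* moved from -0.15 without *Col1a2+/-* heart 3294 to -0.50 without *Col1a2+/-* heart 2769 and passed in neither case. *Egflam*, which encodes pikachurin of the retinal synapse, was dim and had a difference of 0.18.

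The hearts separated by animal-number series for the common collagen IV chains, the endothelial laminin chain and the cross-linking enzyme. In *Col4a1*, *Col4a2*, *Lama4* and *Pxdn*, every heart of series 27 lay above every heart of series 32 (12.5% of the 32 genes, against 6.48% of all probe sets and 6.94% of those above the dim limit). The lowest series 27 heart and the highest series 32 heart had 8.68 and 8.35 for *Col4a1*, 10.24 and 10.12 for *Col4a2*, 12.55 and 12.37 for *Lama4*, and 10.68 and 10.37 for *Pxdn*. The same 4 genes were higher in series 27 when limma was fitted with genotype as a term (unadjusted p below 0.05), as were 3.21% of all probe sets and 2.4% of those above the dim limit. At the adjusted limit 0 of the 32 passed, and 0% of all probe sets. Their adjusted-for-genotype differences were 0.52 ± 0.19, 0.45 ± 0.19, 0.46 ± 0.19 and 0.59 ± 0.18 (standard error, n = 3 hearts per series), each larger than that of the same gene between genotypes but for *Col4a2*. *Lama5*, *Smoc1* and *Tinagl1* lay below in every series 27 heart (6% of all probe sets and 7.33% of those above the dim limit), and *Lama5* alone of these passed the unadjusted limit, as did 3.12% of all probe sets. With 3 hearts against 3, a gene without overlap between series cannot also be without overlap between genotypes. Without *Col1a2-/-* heart 3200, 0 genes were higher in series 27, and without *Col1a2+/-* heart 3201 only *Pxdn* was. Series 27 holds 2 of the *Col1a2-/-* hearts and series 32 holds 1. With the series as a block the difference was 0.14 for *Col4a1*, 0.34 for *Col4a2*, 0.07 for *Lama4* and 0.14 for *Pxdn*, while it was 0.58 for *Nid2*, 0.44 for *Col18a1*, 0.46 for *Hmcn1* and 0.24 for *Nid1*. *Nid2*, *Col18a1* and *Hmcn1* still passed the unadjusted limit with the block, and the adjusted p did not. *Col4a1*, *Col4a2*, *Lama4* and *Pxdn* were picked by the order of the series, and *Nid2*, *Col18a1*, *Hmcn1* and *Nid1* by that of the genotypes. The contrast between these sets under the block thus follows in part from how they were picked.

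**Figure D4:**
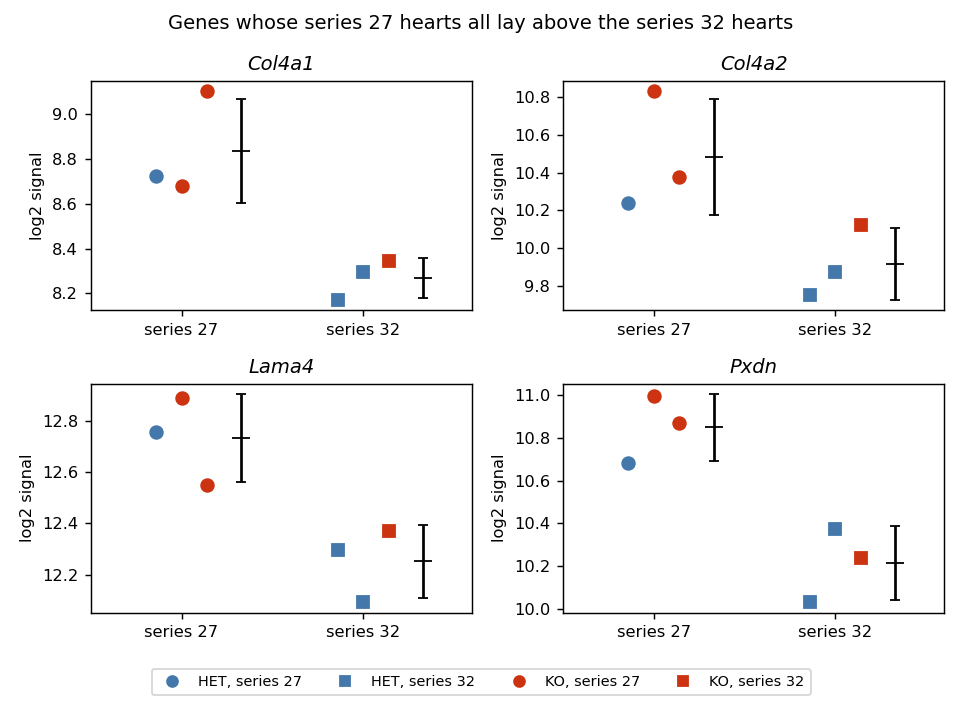
Log2 signal of *Col4a1*, *Col4a2*, *Lama4* and *Pxdn* in each heart by animal-number series, with genotype as color (HET, *Col1a2+/-*, blue; KO, *Col1a2-/-*, red) and the mean and SD of 3 hearts in black. The 3 hearts of series 27 lie above the 3 of series 32 in each panel, with both genotypes on each side, and each axis starts above 0.

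Within each series the difference could be taken without the other. Of the 32 genes, 14 had a positive difference in both series (43.8%, against 25.7% of all probe sets), 7 had a negative one in both (21.9%, against 26.5%), and 11 had opposite signs (34.4%, against 47.8%). The 14 were *Col4a1*, *Col4a2*, *Col4a3*, *Col18a1*, *Lama2*, *Lamc1*, *Nid1*, *Nid2*, *Hspg2*, *Agrn*, *Npnt*, *Pxdn*, *Hmcn1* and *Egflam*. The median of the 32 was 0.07 in series 27 and 0.03 in series 32. Each of these differences rests on 1 heart of one genotype and 2 of the other, and no test was made within a series.

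**Figure D5:**
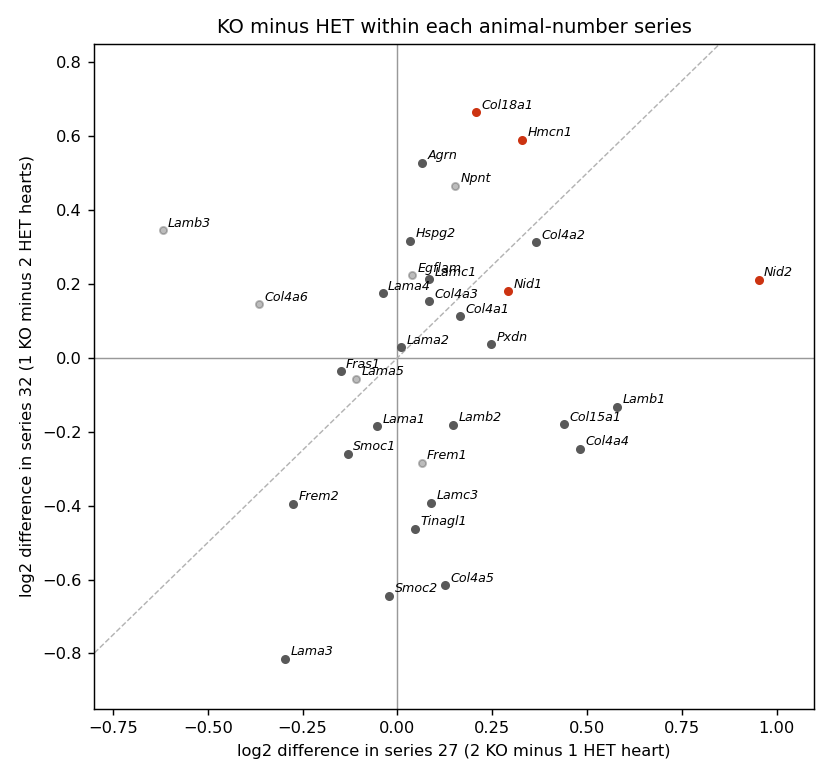
Log2 difference KO minus HET (*Col1a2-/-* minus *Col1a2+/-*) of each gene within series 27 (x axis) and within series 32 (y axis), with equal values on the dashed line, genes without overlap between genotypes in red and genes under the dim limit pale. The 14 genes in the upper right quadrant include all 4 red ones, with *Nid2* at 0.95 and 0.21 and *Col18a1* at 0.21 and 0.67.

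At the unadjusted limit 2.67% of all probe sets were higher and 2.79% lower. Of 17 measured receptors of the basement membrane, 1 was higher and 0 were lower at this limit, with a median difference of -0.08. The one was *Itga6*, the alpha chain of a laminin-binding integrin of endothelium and epithelium, with a log2 signal of 11.90, 11.71 and 11.25 in *Col1a2+/-* hearts 2769, 3201 and 3294 and 12.48, 12.13 and 11.96 in *Col1a2-/-* hearts 2767, 2770 and 3200. Its hearts did not overlap, the difference was 0.57 (adjusted p = 0.906 from limma), and *Col1a2+/-* heart 3294 was the lowest, so that 0 receptors passed without that heart. With the series as a block, *Itga6* did not pass (0.45, unadjusted p = 0.0619 from limma), and *Sdc4*, which encodes the heparan sulfate receptor syndecan-4, was lower (-0.61, unadjusted p = 0.0275 from limma). *Dag1*, the dystroglycan that holds laminin at the muscle surface, had 15.79 ± 0.14 in *Col1a2+/-* and 15.69 ± 0.09 in *Col1a2-/-* hearts, and the muscle laminin receptor *Itga7* had 10.18 ± 0.11 and 10.18 ± 0.23 (SD, n = 3 each). Of 12 listed enzymes that glycosylate dystroglycan for laminin binding, only 6 were measured, and of these 0 were higher and 1 was lower. Their median was -0.21, and it was 0.014 without *Col1a2+/-* heart 3294 and -0.10 with the series as a block. The lower one was *Pomt1*, an O-mannosyltransferase, with 9.78, 9.62 and 9.74 in *Col1a2+/-* and 9.12, 9.02 and 9.48 in *Col1a2-/-* hearts (difference -0.50, adjusted p = 0.879 from limma), without overlap. *Pomgnt2* also lay below without overlap, with 8.53, 8.54 and 8.22 in *Col1a2+/-* and 8.17, 7.94 and 8.19 in *Col1a2-/-* hearts. Its difference of -0.33 did not pass the unadjusted limit. Of all probe sets, 5.47% lay below without overlap. *Pomt1* passed with the series as a block. Of these enzymes, 0 were lower without *Col1a2-/-* heart 2767 or without *Col1a2-/-* heart 2770, and 2 were without *Col1a2+/-* heart 3294.

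Of 14 measured genes for the folding and hydroxylation of collagen, 0 were higher and 0 lower at the unadjusted limit with no block in limma, with a median of -0.01, and *Serpinh1*, the collagen chaperone HSP47, had a difference of 0.23. With the series as a block 2 were higher, the lysyl hydroxylase *Plod2* (0.44) and the collagen galactosyltransferase *Colgalt2* (0.57). With no block, 2.67% of all probe sets were higher and 2.79% lower at the unadjusted limit. Of 16 proteases, sulfatases and inhibitors that act on the sheet, 1 was higher and 0 lower, with a median of 0.14. It was *Plau*, which encodes urokinase, at 5.99, 6.20 and 5.87 in *Col1a2+/-* and 6.47, 6.43 and 6.49 in *Col1a2-/-* hearts (difference 0.45, adjusted p = 0.886 from limma), and it passed with the series as a block. In this list 0 were higher without *Col1a2+/-* heart 3294 or *Col1a2-/-* heart 3200, 3 were higher without *Col1a2+/-* heart 2769 or with the dim probe sets left out, and the gelatinase *Mmp9* was lower with the block (-0.39). Of 15 further components, 1 was higher and 0 lower, with a median of 0.06, and this was *Sparc*, whose product binds collagen IV and fibrillar collagens, at 16.48, 16.15 and 16.06 in *Col1a2+/-* and 17.05, 16.80 and 16.64 in *Col1a2-/-* hearts (difference 0.60, adjusted p = 0.872 from limma). Of 19 interstitial matrix genes, *Postn*, *Col1a1* and *Col3a1* were higher and 0 were lower, with a median of 0.15. Their differences were 1.03, 0.81 and 0.64, against 0.59, 0.47 and 0.42 for *Nid2*, *Col18a1* and *Hmcn1*. The difference between the interstitial list and the basement membrane genes was not tested.

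In whole tissue, fewer cells of a type and less RNA per cell cannot be told apart. Markers of cells that make basement membrane moved in part with these genes. The counts of markers below stand beside 2.67% of all probe sets higher and 2.79% lower at the unadjusted limit. The summed signal (2 to the power of the log2 signal) of 14 endothelial markers was 81131 to 84690 in *Col1a2+/-* hearts and 87232 to 90666 in *Col1a2-/-* hearts, without overlap, while their mean log2 signal was 11.29 to 11.37 and 11.35 to 11.49, with overlap. Of these 14, 1 was higher at the unadjusted limit, *Erg*, a transcription factor of endothelium, with a difference of 0.44 that did not pass with the series as a block (0.42, unadjusted p = 0.0715 from limma). *Mcam* and *Notch3* were the 2 higher ones among 14 genes that mark mural cells of vessels, and the list's mean log2 signal was 10.54 to 10.80 in *Col1a2+/-* and 10.81 to 10.85 in *Col1a2-/-* hearts, without overlap. Both passed with the block, where the smooth muscle actin *Acta2* was lower (-0.65). The summed signal of this list was 159715 to 173302 and 165899 to 167608. Of 15 fibroblast markers, 4 were higher, and 10 had a positive and 5 a negative difference. The list's mean log2 signal was 9.83 to 9.91 in *Col1a2+/-* and 9.90 to 10.08 in *Col1a2-/-* hearts, with overlap. Its summed signal was 267504 to 299033 in *Col1a2+/-* and 252313 to 268429 in *Col1a2-/-* hearts, also with overlap. With the block *Cilp* was no longer among the 4, and the fibroblast transcription factor *Tcf21* was lower (-0.66). No marker of these 3 lists was under the dim limit but 1 of the fibroblast list. Of 19 mitosis markers, 6 were higher, 5 of them also with the block, and 9 were dim, with a mean of 5.60 to 5.91 and 5.88 to 6.36. By series, the mitosis markers had means of 5.91 to 6.36 in series 27 and 5.60 to 5.88 in series 32, without overlap, and the endothelial markers 11.36 to 11.49 and 11.29 to 11.37, with overlap. The part of these cells in the differences given above was not tested.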

How the data were processed

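The study measured total RNA of 3 *Col1a2-/-* and 3 *Col1a2+/-* hearts on Affymetrix Clariom S Mouse arrays, after Trizol extraction and labeling with biotin. The authors deposited log2 signals per probe set, which their array software had normalized and summarized over probes. The submission names Affymetrix Expression Console as the software, the methods name Transcriptome Analysis Console, and neither versions nor the normalization are given in the sources used here. How strongly that software compressed low signals or differences is thus unknown. Of 28846 entries, 6640 control probe sets were left out.

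Genes were named through the platform annotation, in which 19572 of 22206 probe sets have 1 symbol and the others none. List genes without a symbol there were not analysed here. Each of the 32 genes had 1 probe set, so no choice between probe sets arose. Levels of different genes were not compared, since probe sets differ in brightness.

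Genotypes came from the sample titles. The fit used lmFit and eBayes of limma 3.58.1 in R 4.3.3 without covariates, with 4 residual degrees of freedom, two-sided, and standard errors and intervals are those of limma. The number of arrays limits the precision. Nothing in the labels says more of the hearts than their animal numbers, so p-values measure the spread between these hearts. Alternatives were quantile normalization, median centring, a filter on dim probe sets, a trended robust prior, Student's t-test, array weights, the animal-number series as a block, gene means and each heart left out. The comparison of series and the recounts of the pathway lists were added after seeing the data. Code was tested on simulated data. The 32 genes and the lists were chosen with earlier results of these data known. Values in every heart are given for genes past an unadjusted p under 0.05, genes without overlap between genotypes, collagen IV pairs above the dim limit and the muscle laminin chains, and for *Col15a1*, *Lama3*, *Lama4*, *Hspg2*, *Agrn* and *Pxdn*, which were chosen after their values were seen. Of the pathway lists, genes past the unadjusted limit are named. *Dag1*, *Itga7* and *Serpinh1* are named in addition for their roles, and *Pomgnt2* for its lack of overlap, all with their values seen. Start regions are from RefSeq on GRCm38.p6. Figures were drawn with matplotlib 3.10.9.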

Additional observations from a re-analysis of the deposited data

How the results depend on the processing

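No paired analysis was possible because the animal numbers of the genotypes are not shared. For the 32 genes, the counts at the unadjusted limit and without overlap stayed within 1.5 times under quantile normalization, median centring, the dim filter, a trended robust prior, the methods' t-test, array weights, the series block and gene means, and no gene of the 32 passed an adjusted p under any of these or without any heart. With each heart left out, 1 to 4 genes were higher and 0 to 1 lower, 4 to 11 lay above without overlap and 0 to 3 below. The shares of all probe sets above and below rose as well, to 9.67% to 10.9% and 10% to 11.1%, since only 5 hearts are compared. Across the alternatives that keep all hearts, the pathway counts moved more, with 0 to 1 receptors higher and 0 to 1 lower, 0 to 2 collagen assembly genes higher, and 1 to 3 proteases and inhibitors higher and 0 to 1 lower. In the settings tried for the series with all hearts, 3 to 5 genes were higher in series 27 and 1 to 2 lower. With a heart left out, 0 to 4 were higher and 0 to 2 lower. The trended robust prior gave the 5 higher, *Lamb1* among them. Lower were 2 under quantile normalization, under median centring and without *Col1a2+/-* heart 3201. *Col1a2* had -2.51 with the methods' t-test (adjusted p = 0.546) and -2.60 to -2.39 without a heart, where it did not pass without *Col1a2+/-* heart 3294 (adjusted p = 0.0948 from limma) or *Col1a2-/-* heart 2770 (adjusted p = 0.0562 from limma). Some differences changed sign, among them those of *Smoc2* and *Lama5*, which were -0.34 and -0.31 with all hearts. *Lamb3* was 0.0054 under quantile normalization and 0.0244 with array weights, *Frem1* 0.0126 under quantile normalization and *Lamb2* -0.0176 with the series block. Without a heart, the range was -0.0552 to 0.24 for *Col4a4*, -0.22 to 0.0488 for *Lama1*, -0.0265 to 0.0677 for *Lama2*, -0.54 to 0.0339 for *Lama5*, -0.0529 to 0.11 for *Lamb2*, -0.35 to 0.28 for *Lamb3*, -0.26 to 0.0031 for *Lamc3*, -0.19 to 0.0582 for *Fras1*, -0.22 to 0.16 for *Frem1* and -0.58 to 0.0096 for *Smoc2*. The cause was not tested. Signals under the dim limit give little precision for 6 of the 32 genes.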
